A study of Homo sapiens with 2 samples.

Results

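The endoderm transcription factors SOX17, FOXA2, GATA6, HHEX and PRDM1 were taken by gene symbol from the authors' deposited table, in which all 5 have a row among 2005 genes. The libraries were made from HES2, an established human embryonic stem cell line, infected with lentivirus carrying a short hairpin RNA against TFCP2L1 (Tfcp2l1 shRNA, called the knockdown library) or a scrambled control (scramble). Both cultures were kept for 3 passages in basal medium with 10% KSR, FGF2 at 10 ng/ml and Activin A at 10 ng/ml. Each group had 1 library, so no difference has a replicate check, no p-value of the conditions is given, and a difference between the cultures cannot be told apart from the knockdown. How many hairpins were used is not given in the sources used here. The table holds 1084 genes higher and 921 lower after knockdown, none by less than 2-fold, and nothing is said here of a gene with no row.

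Definitive endoderm is the germ layer that gives the lining of gut, liver, pancreas and lung, and cells of the late primitive streak enter it under NODAL or Activin signalling. SOX17, GATA6 and FOXA2 act early in that step. SOX17 is an HMG-box factor required for definitive endoderm, GATA6 is a zinc finger factor of embryonic and extraembryonic endoderm, and FOXA2 is a forkhead factor that can open closed chromatin at endoderm genes. HHEX is a homeobox repressor of the anterior endoderm and of liver and blood precursors. PRDM1 (BLIMP1) is a zinc finger repressor that in the mouse embryo marks endoderm and the founders of the germ line. Together with SOX17 it also takes part in the specification of human primordial germ cells.

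TFCP2L1 (gene ID 29842), the targeted gene, had 0.33 FPKM in the knockdown library and 3.19 FPKM in the scramble library. Its inferred reads numbered 69 and 692, a ratio of 0.103 (interval 0.0793 to 0.132). Levels are in FPKM (reads scaled by gene length and library depth), every ratio is that of the knockdown library over the scramble library, and each interval is an exact 95% interval that covers counting error only. Reads were inferred from the levels and p-values of the table, which gives about 22710000 reads in the knockdown library and 23470000 in the scramble library.

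All 5 endoderm factors were higher in the knockdown library. Being listed and higher holds for 5.86% of the genes that the authors tested. Because these factors were chosen with results of the same data known, the count is a description. In the knockdown library each of the 5 was at 1 FPKM or more, and in the scramble library none was. The sum of their levels was 131 FPKM in the knockdown library and 1.67 FPKM in the scramble library. More cells that express a factor and more RNA per expressing cell cannot be told apart in these bulk libraries.

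FOXA2 (gene ID 3170, chromosome 20) was at 56.5 FPKM in the knockdown library (3028 reads) and 0.05 FPKM in the scramble library (3 reads). It was the highest of the factors in the knockdown library and made up 43.0% of their summed level there, against 2.99% in the scramble library. Its ratio of 1044 (interval 357 to 5065) rests on so few scramble reads that its upper bound lies far from its lower one. Of the 31-base words of the FOXA2 transcript, 2.68% also occur in its paralog FOXA1.

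GATA6 (gene ID 2627, chromosome 18) was at 28.7 FPKM in the knockdown library (2423 reads) and 0.06 FPKM in the scramble library, where the level, as rounded in the table, allows 5 whole reads and no other number. The ratio was 501 (interval 214 to 1545). SOX17 (gene ID 64321, chromosome 8) was at 26.6 FPKM in the knockdown library (1378 reads) and at the floor of 0.01 FPKM in the scramble library. A single scramble read would have given SOX17 0.0187 FPKM, so its floor value corresponds to no read, and 3 reads, the limit that a count of 0 allows, would have given 0.0560 FPKM. Set against those 3 reads SOX17 was 475-fold higher. Its counting interval is two-sided and covers the knockdown reads too, and by its lower limit SOX17 was at least 386-fold higher.

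HHEX (gene ID 3087, chromosome 10) was at 15.5 FPKM in the knockdown library (602 reads) and 0.98 FPKM in the scramble library (39 reads), a ratio of 16.0 (interval 11.5 to 22.7). PRDM1 (gene ID 639, chromosome 6) was at 4.16 FPKM in the knockdown library (474 reads) and 0.57 FPKM in the scramble library (68 reads), a ratio of 7.21 (interval 5.58 to 9.44). These were the factors with reads well above the floor in scramble cells, and they made up 58.7% (HHEX) and 34.1% (PRDM1) of the summed scramble level. In the knockdown library their shares of the sum were 11.8% and 3.16%.

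The order of the factors therefore differed between the libraries. By level in the knockdown library FOXA2 (interval 54.5 to 58.5 FPKM) came before GATA6 (27.6 to 29.9), SOX17 (25.2 to 28.0), HHEX (14.3 to 16.8) and PRDM1 (3.80 to 4.56). By the interval of the ratio of levels, each step in that order was beyond counting error, with gene lengths taken as known. The smallest step was GATA6 at 1.08 times the level of SOX17 (interval 1.01 to 1.15). The separate intervals of these levels overlap, and 13.7% of the GATA6 words occur in other genes. Whether GATA6 was above SOX17 in the knockdown library is therefore uncertain. In the scramble library HHEX (0.693 to 1.33 FPKM) was at 1.68 times the level of PRDM1 (0.450 to 0.734), with an interval of 1.11 to 2.53. GATA6 (0.0186 to 0.134) and FOXA2 (0.0112 to 0.158) lay below PRDM1 and did not differ beyond counting error there, at 1.06 times (interval 0.206 to 6.81), and SOX17 had no read. By ratio, the intervals of FOXA2, SOX17 and GATA6 overlapped, and the differences among these ratios were not tested. The lower bound of GATA6 was 9.46 times the upper bound of HHEX, and the interval of HHEX lay wholly above that of PRDM1.

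**Figure D1:**
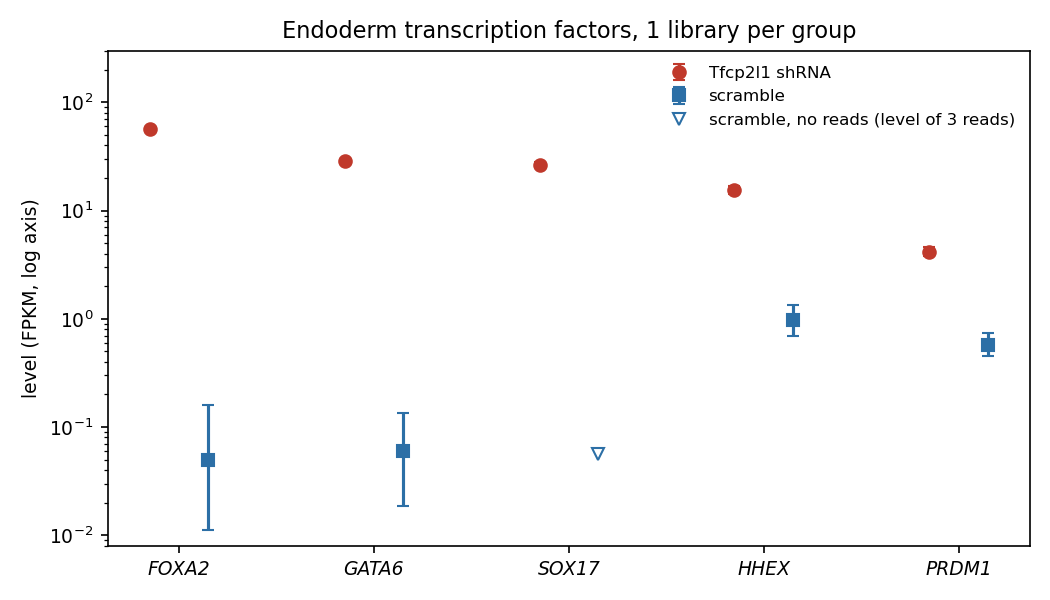
Level of each endoderm factor in FPKM (log axis) in the knockdown library (red circles) and the scramble library (blue squares), with exact 95% counting intervals of the inferred reads as bars, and an open triangle at the level of 3 reads where the scramble library held none (SOX17). Every factor was higher in the knockdown library, between 4.16 and 56.5 FPKM, and HHEX and PRDM1 were the highest in the scramble library, at 0.98 and 0.57 FPKM.

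Log2 ratios were also computed with 0.1 FPKM added to each level, so ratios of barely detected genes come out too small. They were 8.56 for FOXA2, 7.92 for SOX17, 7.49 for GATA6, 3.86 for HHEX and 2.67 for PRDM1. The median of the 5 was 7.49, also with SOX17 set at its fold against 3 reads, and it was 1.01 over all listed genes and 1.50 over the listed genes that were higher. Ranked this way among the 2005 listed genes, FOXA2 was at place 3, SOX17 at 5, GATA6 at 8, HHEX at 68 and PRDM1 at 154. The places depend on the number added. With 1 FPKM added SOX17 was at place 14 and HHEX at 31, and with 0.01 FPKM added SOX17 was at 3 and HHEX at 129. On this scale 4 of the 5 were at least 8-fold higher, as were 5.84% of listed genes. PRDM1 was the one below 8-fold. A counting interval wholly above 2-fold was found for all 5 and for 38.1% of listed genes.

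In the authors' deposited table the p-value and false discovery rate of SOX17, FOXA2 and GATA6 are printed as 0. The deposited p-value is 7.17e-135 for HHEX and 6.52e-79 for PRDM1, with false discovery rates of 3.59e-133 and 1.85e-77 in the same authors' deposited table. These p-values compare the reads of 2 libraries and not the conditions. Ranked by p, HHEX stood at 369 and PRDM1 at 652 among 18489 genes tested, and listed genes reached rank 7704, or 41.7% of those tested.

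**Figure D2:**
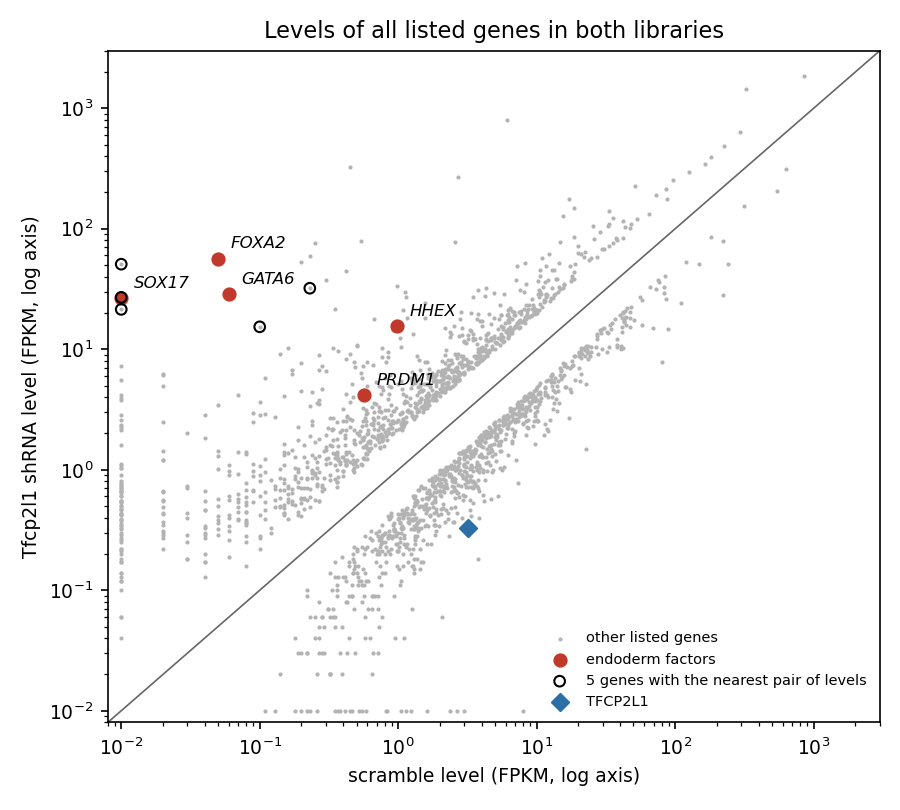
Level in the knockdown library against level in the scramble library, both in FPKM on log axes, for all 2005 listed genes (grey), with the endoderm factors in red, TFCP2L1 as a blue diamond, and open circles on the 5 genes with the nearest pair of levels. The diagonal marks equal levels, and the band beside it is empty because the table holds genes that differed by at least 2-fold. SOX17, FOXA2 and GATA6 lie at the upper left, with 0.06 FPKM or less in the scramble library, and HHEX and PRDM1 lie nearer the diagonal.

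In the table's own annotation, 114 listed genes carry a term for sequence-specific DNA binding or transcription factor activity. Not every gene with such a term is itself a transcription factor. Of the 114, 68 (59.6%) were higher and 46 lower, where 54.1% of all listed genes were higher, and the median log2 ratio was 1.11. All 5 endoderm factors are among these 114. Some listed homeobox factors carry no such term, CDX1 among them, with a log2 ratio of 5.16 (0.1 FPKM added). The places below therefore hold among the 114 only, and not among all listed transcription factors. By log2 ratio with 0.1 FPKM added FOXA2 was at place 1 of these 114 genes, SOX17 at 2, GATA6 at 4, HHEX at 12 and PRDM1 at 20. EOMES, a T-box factor of the primitive streak, was at place 3 (76.0 FPKM in the knockdown library, 0.25 FPKM in the scramble library). LHX1, a LIM homeobox factor of the anterior streak, was at place 5 (52.8 and 0.20 FPKM). With 1 FPKM added the order among the 114 changed, with EOMES at place 1, FOXA2 at 2, LHX1 at 3, GATA6 at 5, SOX17 at 6, HHEX at 9 and PRDM1 at 21. With 0.01 FPKM added SOX17 was at place 1, FOXA2 at 2, GATA6 at 3, HHEX at 22 and PRDM1 at 28.

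The genes with the pair of levels nearest to the median pair of the factors were DKK4 (26.9 FPKM in the knockdown library and no scramble read), PRSS2 (21.4 FPKM and no scramble read), DKK1 (15.4 FPKM and 0.10 FPKM), NPPB (50.8 FPKM and no scramble read) and T (32.1 FPKM and 0.23 FPKM). DKK4 and DKK1 encode secreted WNT inhibitors, PRSS2 a trypsinogen, NPPB a natriuretic peptide and T brachyury. Likeness was the distance between pairs of log2 levels (0.1 FPKM added) over the 2 libraries. It was 0.54 for DKK4, 0.62 for PRSS2, 0.85 for DKK1, and 1.08 for both NPPB and T. On the same measure GATA6 was 0.11, SOX17 0.54 and FOXA2 1.09 from the median pair, and HHEX (2.86) and PRDM1 (3.36) lay further off than all of these. PRSS2 is uncertain, since 24.0% of its 31-base words occur in other genes.

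RefSeq promoter windows (GRCh38.p14, 250 bases before to 50 after an annotated start) were matched for GATA6, HHEX and PRDM1, the last with 2 starts. The sequences are printed because these starts differ widely in base composition, while the genes share the direction of their difference. All 4 lie on the plus strand and run 5′ to 3′, and capitals mark matches to the motifs searched.
GATA6, chr18:22169339-22169638: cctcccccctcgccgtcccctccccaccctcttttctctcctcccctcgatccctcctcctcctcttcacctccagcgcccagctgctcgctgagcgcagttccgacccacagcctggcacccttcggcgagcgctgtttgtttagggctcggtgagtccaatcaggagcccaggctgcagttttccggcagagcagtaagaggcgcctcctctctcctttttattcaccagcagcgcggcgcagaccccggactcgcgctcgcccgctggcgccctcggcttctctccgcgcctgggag
HHEX, chr10:92689705-92690004: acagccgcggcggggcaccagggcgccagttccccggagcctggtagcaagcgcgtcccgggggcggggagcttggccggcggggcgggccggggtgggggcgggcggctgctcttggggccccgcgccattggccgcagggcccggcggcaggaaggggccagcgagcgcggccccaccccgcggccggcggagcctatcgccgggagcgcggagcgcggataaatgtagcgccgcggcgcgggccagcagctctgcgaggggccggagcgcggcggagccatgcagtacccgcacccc
PRDM1 first start, chr6:106086086-106086385: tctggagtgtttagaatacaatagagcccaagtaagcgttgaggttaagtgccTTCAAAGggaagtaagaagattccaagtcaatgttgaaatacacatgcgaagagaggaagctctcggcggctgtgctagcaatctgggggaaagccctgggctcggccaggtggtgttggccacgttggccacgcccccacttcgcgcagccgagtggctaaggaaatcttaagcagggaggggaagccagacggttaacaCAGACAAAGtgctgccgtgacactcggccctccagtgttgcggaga
PRDM1 second start, chr6:106098691-106098990: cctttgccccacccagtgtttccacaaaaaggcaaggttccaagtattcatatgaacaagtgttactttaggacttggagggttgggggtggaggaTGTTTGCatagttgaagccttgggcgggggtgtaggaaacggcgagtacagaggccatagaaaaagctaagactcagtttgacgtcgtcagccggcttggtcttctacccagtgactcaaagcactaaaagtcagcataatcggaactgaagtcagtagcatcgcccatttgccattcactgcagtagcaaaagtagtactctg

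HHEX has the window richest in G and C, at 80.3%, and 44 CpG pairs, with an observed over expected ratio of 0.924. GATA6 follows at 66.7% and 25 CpG pairs (0.824). The PRDM1 windows hold 54.3% with 14 CpG pairs (0.650) at the first start and 48.3% with 8 CpG pairs (0.463) at the second. The median over 35116 windows is 58.7% with a CpG ratio of 0.579, so HHEX and GATA6 lie above it on both measures, and the second PRDM1 start lies below it on both. The table gives 1 level for PRDM1, which does not say which start was used.

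Motifs were searched on both strands, and a match is a description of letters. CTTTGAA or CTTTGAT, which TCF/LEF factors bind, occurs in the first PRDM1 window at positions -197 to -191, counted from 1 at the start itself, and in 6.86% of all windows. CAGACA, a SMAD element (16.9% of windows), lies in the same window at 5 to 10, where it overlaps ACAAAG at 8 to 13. ACAAAG or ACAATG, which SOX factors bind, occurs in 24.5% of windows. TGTTTAC or TGTTTGC, a FOXA motif (7.17% of windows), lies in the second PRDM1 window at -154 to -148. In none of the 4 windows was there a match to GTCTAGA (SMAD palindrome, 1.44% of windows), AATCCAC (FOXH1, 2.31%), AGGTGTG (T-box, 4.59%), the letters that GATA factors bind (AGATAA or TGATAA, 16.3%), the core element 5′ of many starts (TATAAA, 11.5%), or to a pair of CCAG with 6 bases between them (CP2-type, 4.04%). The GATA6 and HHEX windows hold none of the motifs searched.

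Long noncoding RNA genes beside FOXA2 and GATA6 were higher as well. LINC00261, the gene next to FOXA2 on chromosome 20, was at 7.33 FPKM in the knockdown library (778 reads) and at the floor in the scramble library. Against 3 reads it was 268-fold higher, and by the lower limit of its interval at least 218-fold. Its level is uncertain, because 97.3% of its words also occur in AL121722.1, an overlapping gene that shares 1.71% of the FOXA2 words too. GATA6-AS1, on the opposite strand beside GATA6 on chromosome 18, was at 4.16 FPKM in the knockdown library (285 reads) and at the floor in the scramble library. Against 3 reads it was 98.3-fold higher, and by the lower limit of its interval at least 79.4-fold. In GENCODE 5.64% of the GATA6 words occur in GATA6-AS1 transcripts and 7.81% in AC091588.3, another antisense gene, and without a known strand setting reads of these stretches cannot be told apart.

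Among the 3 nearest genes of any kind and the 3 nearest protein-coding genes on each side of every factor there were 55 genes, of which 8 (14.5%) were listed, 6 higher and 2 lower. Of all genes tested 10.8% were listed. The 55 include pseudogenes and noncoding genes that may not have been tested, so these shares have different denominators. Beside HHEX on chromosome 10, CYP26A1, an enzyme that breaks down retinoic acid, had 77.0 FPKM in the knockdown library and 2.59 FPKM in the scramble library (ratio 29.7, interval 24.9 to 35.8). Of its words 32.6% occur in the overlapping gene AL358613.3. EXOC6, a subunit of the exocyst and the protein-coding gene next to HHEX, was at 3.64 and 1.43 FPKM (ratio 2.56).

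THBD near FOXA2, the thrombin receptor thrombomodulin, had 1.65 FPKM in the knockdown library and 0.15 FPKM in the scramble library, a ratio of 11.1 (interval 6.40 to 20.8). CABLES1 near GATA6, which encodes an adaptor of cyclin-dependent kinases, was at 4.14 and 1.36 FPKM, a ratio of 3.06. Both listed neighbours of PRDM1 on chromosome 6 were lower, unlike PRDM1. CRYBG1 had 1.61 FPKM in the knockdown library and 4.64 FPKM in the scramble library (ratio 0.346, interval 0.303 to 0.394), and RTN4IP1 was at 1.61 and 3.76 FPKM (ratio 0.428, interval 0.337 to 0.540). None of the neighbours of SOX17 had a row.

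Most paralogs of the factors had no row. Of 22 paralogs 5 had a row, 4 higher and 1 lower, and the median log2 ratio was 1.65. Of all genes tested 10.8% were listed, 5.86% as higher and 4.98% as lower, and of the listed genes 54.1% were higher. GATA4, which acts beside GATA6 in endoderm and heart, had 4.12 FPKM in the knockdown library and 0.15 FPKM in the scramble library (ratio 26.9, interval 14.8 to 54.5). SOX18, a relative of SOX17 from endothelium, was at 5.79 and 0.80 FPKM (ratio 7.27, interval 4.98 to 10.97). FOXA1 was at 0.34 and 0.04 FPKM (ratio 9.31, interval 2.86 to 47.9). GATA6 was at a higher level than GATA4, and FOXA2 than FOXA1, in the knockdown library on the per-length FPKM scale. PRDM4 was at 7.34 and 3.05 FPKM, and the germ cell and pluripotency factor PRDM14 was the lower one, at 18.3 FPKM in the knockdown library and 42.4 FPKM in the scramble library (ratio 0.433, interval 0.401 to 0.467).

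**Figure D3:**
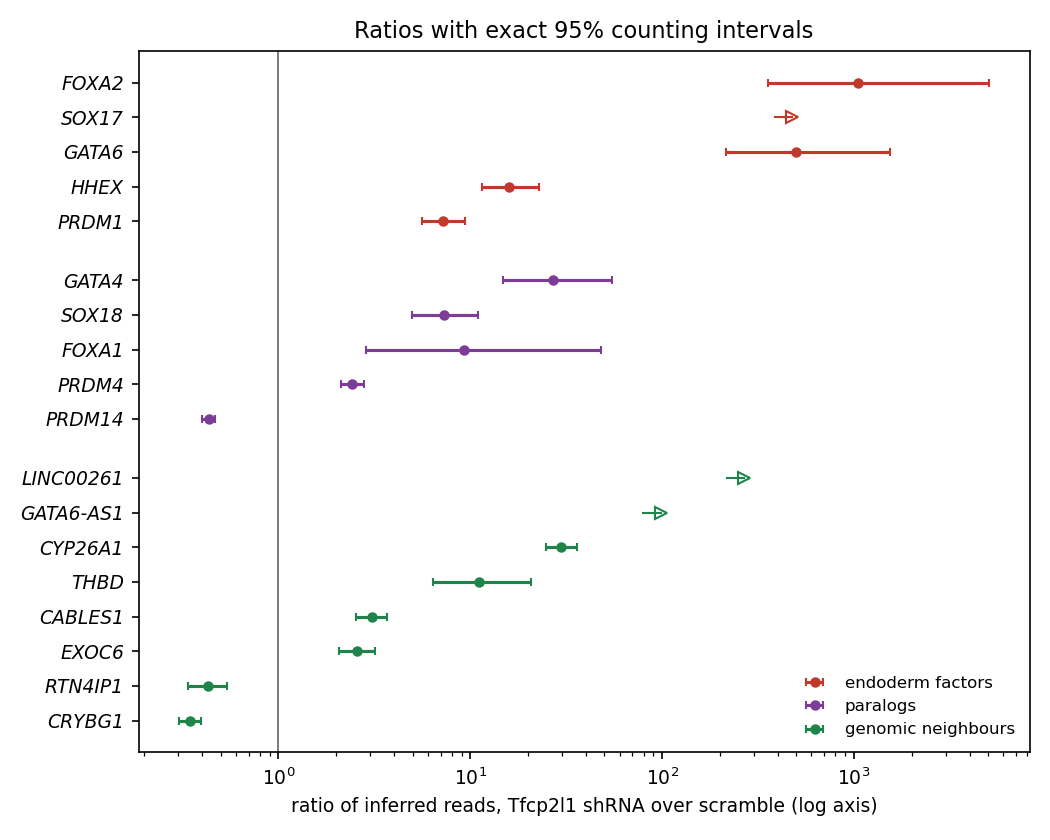
Ratio of inferred reads, knockdown over scramble (log axis), for the endoderm factors (red), their listed paralogs (purple) and their listed genomic neighbours (green), with exact 95% counting intervals as bars. Open triangles give the fold against 3 reads for genes with no scramble read, with a line back to the lower limit of the interval (SOX17, LINC00261 and GATA6-AS1). The intervals of FOXA2, SOX17 and GATA6 lie above those of all paralogs shown and of the neighbours with scramble reads, while LINC00261 and GATA6-AS1, with lower limits of 218 and 79.4, have no upper limit.

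Other genes of definitive and anterior endoderm were higher too. Of 30 such genes 19 had a row and all 19 were higher, where 54.1% of all listed genes were, with a median log2 ratio of 4.48, and 12 of them stood among the 100 highest log2 ratios of the table (14 with 1 FPKM added and 11 with 0.01 FPKM added). Among genes tested, 10.8% were listed. FGF17, an FGF ligand (323 FPKM in the knockdown library, 0.45 FPKM in the scramble library), EOMES, LHX1 and the NODAL and BMP antagonist CER1 (799 and 6.11 FPKM) had the highest log2 ratios with 0.1 FPKM added. By ratio of reads DKK1 was at 158 (interval 61.3 to 581) and CER1 at 131 (interval 112 to 154). The interval of DKK1, which had 4 scramble reads, contains that of CER1, so their order is not settled. EOMES and LHX1 are streak factors as well, and brachyury (T), which is outside this list, was also higher (32.1 and 0.23 FPKM). The list was chosen with earlier results known, and whether the difference is particular to endoderm was not tested. APOB, the apolipoprotein of liver and gut (0.22 and 0.10 FPKM), NODAL (64.4 and 22.4 FPKM) and the WNT inhibitor FRZB (0.68 and 0.08 FPKM) were among the lowest. The interval of APOB (1.45 to 3.47) reaches below 2. NODAL is uncertain, with 41.0% of its words in AC022532.1.

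Genes of the NODAL and Activin pathway were mostly without a row, at 16 of 18. Over all genes tested, 10.8% were listed, and 54.1% of the listed genes were higher. The listed ones of this pathway, CER1 and NODAL, were both higher, and their median log2 ratio was 4.26. Both also belong to the list of other endoderm genes above, so they are not a separate result. Of 20 extraembryonic endoderm genes 5 had a row, 4 higher and 1 lower, with a median of 1.55, against 1.01 over all listed genes. With 1 FPKM added, 1 was still at least 2-fold higher. HNF4A, a nuclear receptor of visceral endoderm and liver, had 0.74 FPKM in the knockdown library and 0.03 FPKM in the scramble library, on 3 scramble reads (ratio 25.9, interval 8.51 to 128). PDGFRA was at 1.86 and 0.57 FPKM, and NID2, a basement membrane protein, was lower at 1.76 and 3.92 FPKM. GATA4 and APOB are the other listed genes of that list.

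Genes of later gut, liver, pancreas and lung had 6 of 18 listed, 4 higher and 2 lower, at a median log2 ratio of 1.43, or 2.01 with CDX1 and TBX3 at their folds against 3 reads. The median over all listed genes was 1.01. Listed genes made up 10.8% of those tested, and 54.1% of listed genes were higher. CDX1, a homeobox factor of posterior gut that is also a WNT target in the streak, was at 3.82 FPKM in the knockdown library with no scramble read. Against 3 reads it was 51.4-fold higher, and by the lower limit of its interval at least 41.3-fold. TBX3 was at 0.22 FPKM with no scramble read. The lower genes were SOX9 (0.74 FPKM in the knockdown library, 2.22 FPKM in the scramble library) and ONECUT1 (2.38 and 4.89 FPKM). The summed level of the listed genes of this list was 9.63 FPKM in the knockdown library and 7.79 FPKM in the scramble library, against 131 and 1.67 FPKM for the 5 factors.

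SOX17 and PRDM1 are also germ cell factors. Of 16 primordial germ cell genes other than these, 5 had a row and 11 had none, where 10.8% of genes tested were listed. All 5 were lower, as were 45.9% of listed genes, and the median log2 ratio was -1.21. The counting interval lay wholly below 0.5 for 3 of the 5, and for 26.7% of listed genes. TFAP2C, an AP-2 factor that acts with SOX17 and PRDM1 in human germ cells, had 6.95 FPKM in the knockdown library and 14.8 FPKM in the scramble library (ratio 0.471, interval 0.420 to 0.527). DAZL, a germ cell RNA-binding protein, was at 0.28 and 0.72 FPKM, KLF4 at 0.81 and 2.49 FPKM, and PRDM14 and TFCP2L1 as given above. The list holds TFCP2L1 itself, so 1 of the 5 is the targeted gene.

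GATA6 and HHEX are further known from heart, blood and endothelium. Of 18 genes of these tissues 4 had a row, 1 higher and 3 lower, and the median log2 ratio was -1.41. Listed genes made up 10.8% of those tested, and 45.9% of listed genes were lower. With 1 FPKM added, 1 of the 3 was still at least 2-fold lower. GATA4 was the higher one. The lower ones were TIE1 (1.04 FPKM in the knockdown library, 5.39 FPKM in the scramble library) and TEK (0.37 and 1.03 FPKM), both receptors of endothelium, and the cardiac troponin gene TNNT2 (0.70 and 2.26 FPKM).

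Markers of the labelled cell type were present in both libraries. Of 12 human embryonic stem cell markers 5 had a row, all lower, where 10.8% of genes tested were listed and 45.9% of listed genes were lower. PRDM14, given above, is 1 of these 5 and is also in the germ cell list, so the lists are not wholly separate results. The summed level of the 5 markers was 201 FPKM in the knockdown library and 542 FPKM in the scramble library. SOX2 was at 86.1 and 180 FPKM, PODXL at 79.1 and 222 FPKM and UTF1 at 14.8 and 88.7 FPKM, so none of the listed markers was at the floor. Among markers of other cell types, 4 of 10 neuroectoderm, 2 of 12 trophectoderm and amnion, and 2 of 10 fibroblast or feeder genes had a row. Of 10 neuroectoderm genes 2 were higher (NES at 252 and 95.9 FPKM, SIX3 at 0.38 FPKM with no scramble read) and 2 lower (SOX3 at 8.82 and 24.4 FPKM, DLL1 at 1.42 and 3.08 FPKM), with sums of 262 and 123 FPKM.

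Of 12 trophectoderm and amnion genes KRT8 was higher (640 FPKM in the knockdown library and 293 FPKM in the scramble library, 35.3% of its words in other genes) and GABRP lower (0.37 and 2.53 FPKM), with sums of 640 and 296 FPKM. Of 10 fibroblast or feeder genes TWIST1 was higher (0.74 and 0.13 FPKM) and COL1A1 lower (24.4 and 110 FPKM), with sums of 25.1 and 110 FPKM. Over all genes tested 10.8% were listed, and 54.1% of the listed genes were higher. The part of these other cell types in the levels of the endoderm factors was not tested.

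**Figure D4:**
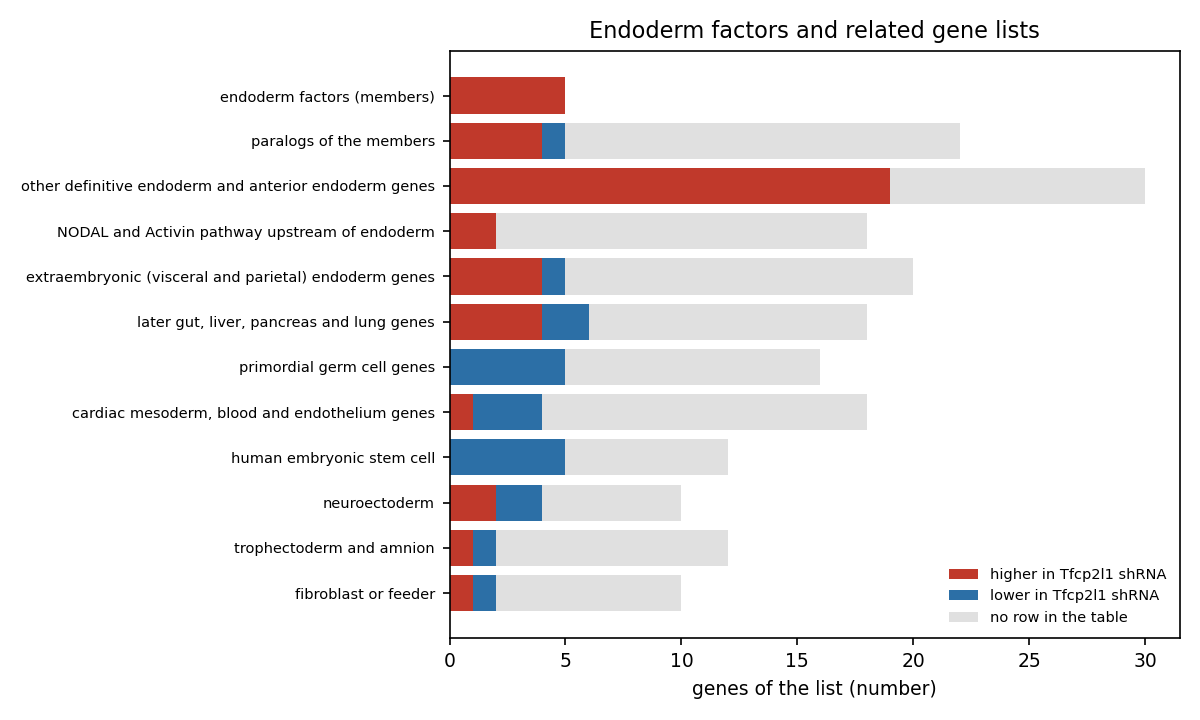
Number of genes in each list that were higher in the knockdown library (red), lower (blue) or had no row in the table (grey). The 5 endoderm factors and 19 of 30 other endoderm genes are red with no blue part. The germ cell and embryonic stem cell lists have 5 blue genes each and no red part, and PRDM14 is among the blue genes of both.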

How the data were processed

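RNA of HES2 cells was sequenced on a BGISEQ-500 from 1 ug of total RNA per library, per the labels' protocols. Bowtie 0.12.2 and hg19 are named in the submitters' processing notes, and the sources used here do not give the counter, test, strand setting or filters. The deposited table holds, per the file headers, for each gene its level in either library with a log2 ratio, p-value and false discovery rate. The deposited levels were read as FPKM, since they scale with inferred reads per kilobase, which would hold for RPKM as well. The lowest, 0.01, is a floor. The deposited log2 ratio has the knockdown library on top. No deposited false discovery rate exceeds 0.000990 and no log2 ratio is smaller in size than 1, so the table is a selection. The number of genes tested, 18489, was inferred as the one that turns p-value over rate into whole ranks.

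Whole reads were inferred as in a Poisson test of 2 libraries (doubled smaller tail). Where scramble levels sat at 0.01, p-values gave whole steps for 67 of 75 genes (within 0.003 reads) and put scramble depth at 1.034 times knockdown depth, and 527 genes gave the depths, with a length offset of 67 bases. Of the 1926 p-values above 0, 1582 (82.1%) belong to genes with a pair of reads that fitted levels and p-value. The p-value was fitted within 0.0002 on the natural log, and the levels within a small slack beyond their rounding. HHEX, PRDM1 and TFCP2L1 are among these genes. For PRDM1 the scramble level alone would give 67 reads, where the pair gave 68. Reads of SOX17, FOXA2 and GATA6 came from the level alone. The inference and the intervals were tested on simulated data, where 95.5% of 200 intervals covered the ratio set. There 100% of p-values above 0 had a pair, against 82.1% in the deposited data. The simulation drew reads by the model that the inference assumes, so it cannot show whether that model holds for these libraries. Exact (Clopper-Pearson) intervals leave out all but counting error, because without molecular identifiers reads need not be separate molecules. The floor is 3 reads per library.

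Factors and gene lists were chosen with earlier results of these data known. Named are the factors, TFCP2L1, the listed genes of each list (at most 4 from the top and 4 from the bottom by ratio), the 5 nearest genes by level and the listed neighbours. A gene that this rule would name is not reported here. No count model was used, since the deposited levels are not counts. Alternatives were other pseudocounts (1 and 0.01), the deposited ratio, inferred reads, a filter at 1 FPKM and a fold of 8. Shared sequence is the percent of 31-base words of the longest GENCODE 29 transcript found in another gene on either strand. Neighbours come from RefSeq by name and order, matched for 1856 of 2005 gene IDs. Python 3.11.15, numpy 2.4.6, pandas 2.3.3 and scipy 1.17.1 were used.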

Additional observations from a re-analysis of the deposited data

How the results depend on the processing

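No endoderm factor changed direction under any setting tried. None could, since every setting used the same 2 libraries and an equal number added to both levels keeps their order. With a pseudocount of 1 FPKM the log2 ratios were 5.78 (FOXA2), 4.77 (SOX17), 4.81 (GATA6), 3.06 (HHEX) and 1.72 (PRDM1), which follows from the larger number added. SOX17, with no scramble read, moved under every other setting too, to 10.4 with a pseudocount of 0.01, 11.4 in the authors' deposited table and 8.89 with inferred reads against 3 reads. Of the 5 factors, 5 were at least 2-fold higher at 1 FPKM or more, 5 by counting interval and 4 past 8-fold. The 2-fold limit on levels was itself no check, because no listed gene differed by less. Among the lists, higher genes at 1 FPKM or more numbered 2 (extraembryonic endoderm), 2 (later gut and liver), 1 (neuroectoderm) and 0 (fibroblast). At 2-fold with a pseudocount of 1 FPKM they numbered 1, 1, 1 and 0, and lower genes numbered 0 (extraembryonic endoderm), 0 (later gut and liver), 2 (germ cell), 1 (heart, blood and endothelium) and 1 (neuroectoderm). The other 50 ratios and counts stayed within counting error or 1.5 times. Places by log2 ratio shifted with the number added. No paired analysis was possible because each group had 1 library. The 3 and 5 scramble reads of FOXA2 and GATA6 limit their ratios.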
